A study of Gallus gallus with 18 samples.

Results

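The genes described here drive cell division: 45 named genes of DNA replication, mitosis and cytokinesis, taken by symbol from a table of 23741 chicken genes. All 45 symbols were found. They make 46 table entries, because MXD3 stands against gene IDs 101751218 and 427629. The study fed Arbor Acres breeder roosters, a broiler parent line, folic acid in excess (FE, 5 mg per kg of feed) or a control amount (FCON, 0.25 mg per kg). PolyA RNA was sequenced from liver of roosters aged 35 weeks, from liver of their day-old (1 day) offspring, and from rooster sperm, with 3 libraries in each of 6 groups. The groups are rooster liver FE, rooster liver FCON, day-old liver of chicks sired by FE roosters, day-old liver of chicks sired by FCON roosters, rooster sperm FE and rooster sperm FCON. Dams of both offspring groups ate a corn and soybean diet with folic acid. RNA of 4 chicks was mixed for each day-old library. The age label of the third FE sperm library is 36 weeks, against 35 for all other adults.

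A dividing cell first licenses its replication origins with the MCM helicase, copies its DNA with nucleotides that ribonucleotide reductase and thymidylate synthase supply, and then condenses, aligns and separates its chromosomes under the control of cyclin-dependent kinases. The genes for these steps are switched on together in cycling cells and are low in resting cells, so their summed mRNA is widely read as a sign of proliferation. Hepatocytes of an adult liver are mostly at rest, while the liver of a hatchling still grows. Thymidylate synthase also ties the set to the diet, since it needs a folate cofactor to make thymidylate.

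The libraries differ in ways that touch every result below. Totals ran from 16979085 to 43130067 counts. Nuclear rRNA took 32.8 to 60.5% of counts in rooster FE livers and 3.02 to 8.75% in rooster FCON livers. It took 4.70 to 20.4% in day-old FE livers and 16.4 to 29.1% in day-old FCON livers. Genes of the W chromosome, which only female birds carry, held 0 to 2.07 CPM (counts scaled to a common library size) in the libraries labelled rooster liver FE and 1015 to 1117 CPM in those labelled rooster liver FCON, against the label of the last 3. In rooster liver, diet and W content cannot be told apart, and no FCON library without W counts is left to compare. Of the day-old pools, both numbered 2 held W counts (1299 CPM in FE and 963 CPM in FCON), and the other 4 held 2.59 to 9.34 CPM. Levels are given as CPM scaled by the trimmed mean of M values (TMM) within the 12 livers or within the 6 sperm libraries. A gene was tested when it reached 1 FPKM (fragments scaled by transcript length and library size) in at least 3 libraries of the comparison, and is called when the Benjamini-Hochberg adjusted p of edgeR's quasi-likelihood test, adjusted over all tested genes, was below 0.05.

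Levels per transcript length differed widely between libraries. The median TMM-scaled FPKM over the 46 entries was 0.296, 0.281 and 0.300 in rooster FE livers and 1.02, 1.30 and 1.07 in rooster FCON livers. It was 8.98, 6.68 and 4.73 in day-old FE livers and 4.21, 2.36 and 5.67 in day-old FCON livers. Rooster livers were thus below every day-old pool, rooster FE livers were below rooster FCON livers, and the day-old FE and FCON pools overlapped. In sperm, which was scaled separately from liver, the median was 1.58, 1.97 and 1.23 in FE and 0.280, 2.07 and 0.719 in FCON.

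**Figure D1:**
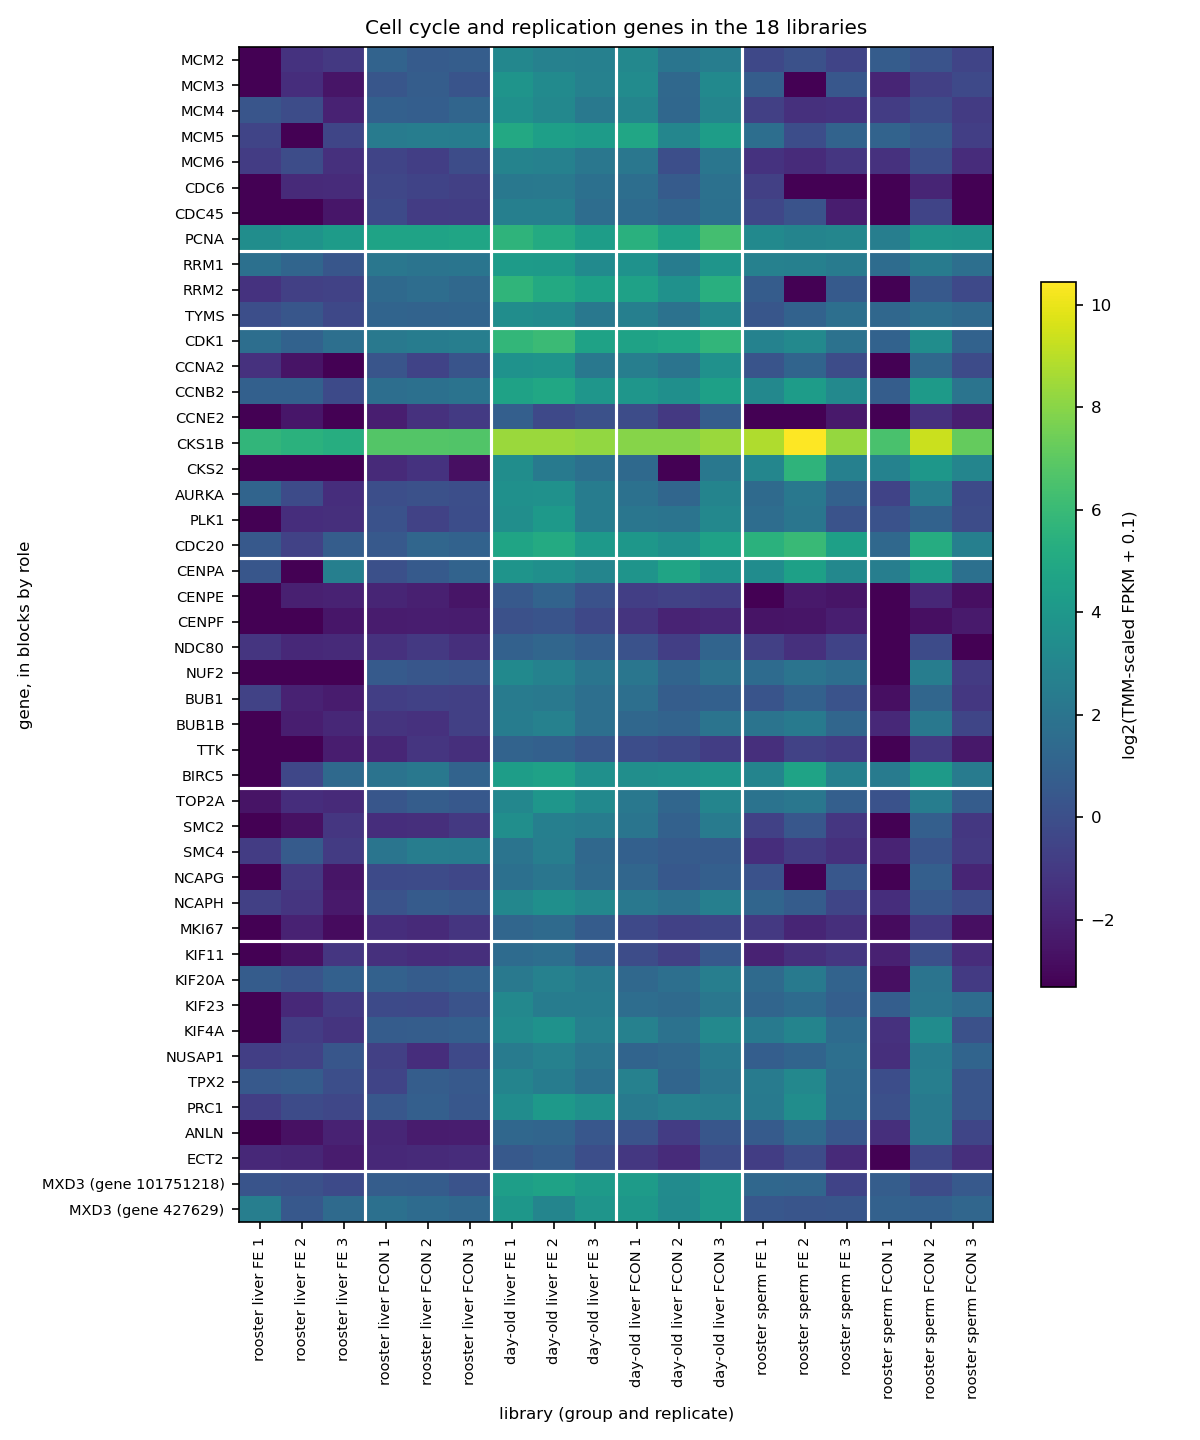
Level of each of the 46 entries (rows, in blocks by role) in each of the 18 libraries (columns), as log2 of TMM-scaled FPKM plus 0.1, with liver and sperm scaled separately. The 6 day-old liver columns are the brightest of the liver columns, the 3 rooster FE liver columns the darkest, and CKS1B is the highest row in every library.

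CKS1B, the small subunit that couples cyclin-dependent kinases to their targets, had the highest FPKM of the 46 entries in each of the 18 libraries. PCNA, the sliding clamp of the DNA polymerases, came second by mean deposited FPKM in both rooster liver groups and in day-old FCON liver (10.4 in rooster FE, 32.7 in rooster FCON and 45 in day-old FCON). CDK1, the kinase that starts mitosis, was second in day-old FE liver (63.0), and CDC20, which triggers the separation of sister chromatids, was second in sperm (37.5 in FE and 21.4 in FCON). The sum of TMM-scaled CPM over the entries other than CKS1B was 88.1, 87.1 and 88.4 in rooster FE livers and 207, 222 and 224 in rooster FCON livers. Counts behind the rooster FE values were few: 1248 to 1796 reads over all 46 entries, against 13068 to 15262 in FCON, with 20, 7 and 4 entries at 0 in FE replicates 1, 2 and 3.

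**Figure D2:**
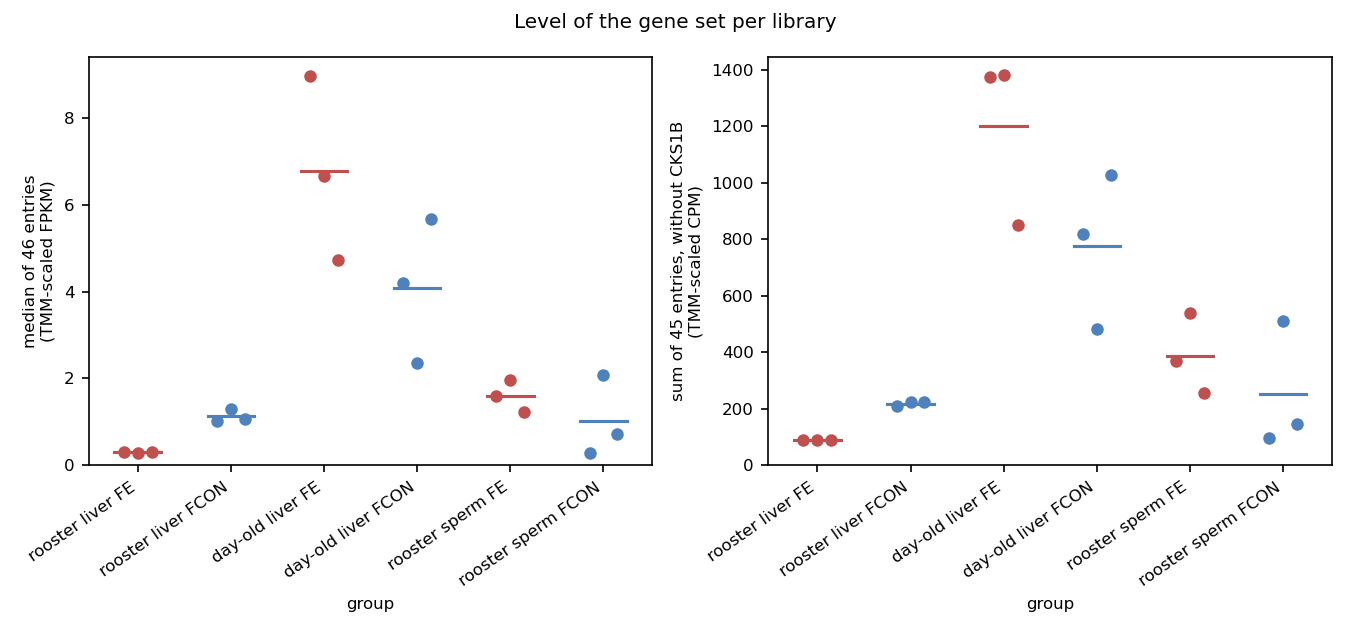
Left, the median TMM-scaled FPKM of the 46 entries, and right, the summed TMM-scaled CPM of 45 entries without CKS1B, each point 1 library and each line the mean of 3. Rooster FE livers lie between 87.1 and 88.4 in the right panel, below rooster FCON livers at 207 to 224, and the FE and FCON points overlap in day-old liver and in sperm.

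Some entries need care. CCNE2, KIF20A, PRC1, CDK1 and NCAPH overlap another gene with counts on the opposite strand, and no strand marking is stated, so reads of such pairs cannot be told apart. MKI67 overlaps PTPRE on its own strand, with 5298 and 1127 counts over all libraries. So do MCM6 and LCT (5359 and 1109 counts) and TOP2A and GJD3 (15296 and 45 counts). INTS8, the neighbour of CCNE2, held 6599 counts over all libraries where CCNE2 held 726, and SFXN1 held 30605 where KIF20A held 7666. RCCD1 held 4181 where PRC1 held 9008, a limit on every PRC1 value below. The neighbours of CDK1 (16158 counts) and NCAPH (5147 counts) held 1539 and 846. A newer RefSeq table gives other symbols to the entries called CCNB2 (CCNB1), AURKA (AURKB) and KIF4A (KIF4B). The deposited table describes gene 427629 as another protein than MXD3, while RefSeq names it MXD3, a transcriptional repressor of the MAX network. SMC2 and CKS2 lie on the Z chromosome, of which birds with a W carry 1 copy.

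In the livers labelled rooster, most cell cycle genes that could be tested were lower in FE than in FCON, across replication, nucleotide supply, chromosome folding and mitotic kinases. CKS1B fell to 27.1 ± 4.41 CPM in FE livers, against 63.2 ± 1.43 CPM in FCON livers (SD, n = 3 each), and TOP2A, which untangles chromosomes, to 1.08 ± 0.621 CPM against 8.18 ± 1.11 CPM. Of 25 entries tested, 15 were called lower and 0 higher, where 21.1% of the 10291 genes tested were called lower and 20.4% higher. Their median log2 difference was -1.16, against -0.03 over all genes. The other 21 entries stayed under 1 FPKM in too many libraries, and only 5, 7 and 10 of the 46 reached it in FE replicates 1 to 3, against 28, 26 and 29 in FCON replicates 1 to 3. Most of the 25 tested entries thus passed the FPKM minimum through FCON livers, where they are high. With no FPKM minimum (at least 10 counts in all), all 46 were tested and 14 were called lower and 0 higher, where 16.2% of genes were called lower. Then 41 of 46 differences were negative, and in 30 of 46 every FE library was below every FCON library, as in 30.3% of all genes. In bulk tissue, fewer dividing cells and less of these mRNAs per cell cannot be told apart.

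The replication genes gave some of the largest differences. MCM5, a subunit of the helicase that opens the DNA, had 1.73, 0 and 1.77 CPM in rooster FE livers and 14.1, 15.2 and 14.3 CPM in rooster FCON livers. All 3 FE values were below all 3 FCON values, and MCM5 fell by 3.66 log2 (SE 0.84, adjusted p = 0.0133). MCM2 (-2.73) and MCM3 (-3.35) were called lower too, MCM4 was not (-1.40, adjusted p = 0.0957), and MCM6, CDC6 and CDC45 were not tested. PCNA had 9.14, 11.3 and 16.1 CPM in FE and 21.4, 21.0 and 22.7 CPM in FCON. The groups did not overlap, and PCNA fell by 0.80 log2 (SE 0.22, adjusted p = 0.0265), a call that was lost without FE replicate 2 or any 1 FCON library (adjusted p up to 0.0870). PCNA also serves DNA repair in resting cells.

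Of the 3 genes of nucleotide supply, 2 were called lower, where 21.1% of all genes tested were. RRM2, the subunit of ribonucleotide reductase that is made in S phase, had 0.673, 1.07 and 1.22 CPM in rooster FE livers and 5.29, 6.08 and 4.95 CPM in rooster FCON livers. Every FE library was below every FCON library, and RRM2 fell by 2.41 log2 (SE 0.33, adjusted p = 0.00169). RRM1, its partner that is present through the cycle, was not called (-0.84, adjusted p = 0.0927). TYMS, thymidylate synthase, fell by 1.10 log2 (SE 0.29, adjusted p = 0.0236), with 1.70 to 2.83 CPM in FE and 4.74 to 5.03 CPM in FCON.

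Among the mitotic genes, CKS1B had 31.9, 26.1 and 23.3 CPM in FE and 64.4, 63.7 and 61.7 CPM in FCON. It had the smallest p of the set here and fell by 1.20 log2 (SE 0.14, adjusted p = 7.6e-04). CDK1 (-0.90) and CCNB2 (-1.16), a mitotic cyclin, were called lower as well. CDC20 was not (-0.60, adjusted p = 0.328), nor was the mitotic kinase AURKA (0.21, adjusted p = 0.828).

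At the kinetochore, NUF2, a subunit of the complex that binds spindle microtubules, had 0 counts in all 3 FE libraries and 2.66, 2.32 and 2.02 CPM in FCON. Taking 3 counts over the FE group as the floor, NUF2 was at least 31.9-fold lower in FE (adjusted p = 0.00196). CENPA, the histone that marks centromeres, had 0.577, 0 and 2.58 CPM in FE and 0.388, 0.590 and 0.841 CPM in FCON, and was not called. The remaining kinetochore and checkpoint entries were either untested or, for BIRC5, not called (-1.58, adjusted p = 0.241). CKS2, which was not tested here, also had 0 counts in every FE library. It had only 17 counts over the FCON libraries (0.0374 to 0.175 CPM). On the same floor it is at least 1.51-fold lower, a bound that rests on those few counts.

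Of the 6 entries of chromosome folding and Ki-67, 3 passed the FPKM minimum. All 3 were called lower, where 21.1% of all genes tested were. TOP2A had 0.385, 1.57 and 1.29 CPM in FE and 7.30, 9.42 and 7.81 CPM in FCON, and fell by 2.84 log2 (SE 0.46, adjusted p = 0.00304). SMC4, the ATPase shared by both condensin complexes, had 2.69, 9.01 and 2.72 CPM in FE and 25.0, 34.7 and 34.2 CPM in FCON. FE replicate 2 was the highest of its group for SMC4 and still below every FCON library, and SMC4 fell by 2.66 log2 (SE 0.49, adjusted p = 0.00546). MKI67, whose protein Ki-67 is the usual histological mark of cycling cells, was not tested, with 0, 1.95 and 0.475 CPM in FE and 3.16, 2.82 and 4.41 CPM in FCON. Of the 4 tested spindle and cytokinesis genes, the motor KIF4A (-2.54) and the midzone crosslinker PRC1 (-1.05) fell, and KIF20A (-0.19) and TPX2 (0.12) were not called. Neither MXD3 entry was called.

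The count of calls depends on single libraries. Without any 1 FCON library, 6 of the same 25 entries were called lower, and without 1 FE library 12 to 17. The shares of all genes called in these fits are not given here, and in the fit of all 6 libraries 21.1% were called lower. Without FCON replicate 1, 2 or 3 the median over the 25 entries was -1.18, -1.17 and -1.12 log2. Over all genes it was then -0.02, -0.03 and -0.03 log2. Other measures also differed between these libraries, some in the direction of the set and some against it. Summed over 19 hepatocyte genes, none at 0 in all libraries of a group and 1 at 0 in FE replicates 1 and 3 and in FCON replicates 2 and 3, the level was 57316 to 90418 CPM in FE and 114802 to 116412 CPM in FCON, and 13 of 17 tested fell and 1 rose. Over 14 macrophage genes, none at 0, it was 1343 to 1481 CPM in FE and 801 to 814 CPM in FCON, with 11 of 14 rising and 0 falling. Over 13 T and NK cell genes, 1 of them at 0 in all FE libraries, it was 413 to 536 CPM in FE and 120 to 129 CPM in FCON, with 6 of 7 tested rising. Over 11 B and plasma cell genes, 1 of them at 0 in all FE libraries and 1 in all FCON libraries, it was 307 to 315 CPM in FE and 142 to 152 CPM in FCON, with 4 of 5 tested rising and 1 falling. Over 9 heterophil genes, 2 of them at 0 in all FE libraries and 2 in all FCON libraries, it was 15.9 to 28.7 CPM in FE and 8.26 to 9.34 CPM in FCON, with both tested genes rising. Over 13 stellate and fibroblast genes it was 729 to 818 CPM in FE and 461 to 566 CPM in FCON. Of 11 tested, 4 rose and 0 fell. Over 9 cholangiocyte genes it was 820 to 985 CPM in FE and 627 to 649 CPM in FCON. Of 8 tested, 3 rose and 1 fell. Of all genes 20.4% were called higher and 21.1% lower. Sums of erythroid, thrombocyte and endothelium genes overlapped between FE and FCON. The part of these cell types, of rRNA content and of depth in the result was not tested.

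Other genes of the pathway, listed with earlier results of these data known, moved in both directions. Of 32 other replication genes tested, 11 fell and 2 rose, and of 30 other mitosis genes 8 fell and 1 rose, to be read against the 21.1% lower and 20.4% higher of all genes. The 8 falling mitosis genes are a share near that background. DUT, which keeps uracil out of DNA, had 10.4 ± 1.39 CPM in FE and 25.7 ± 1.49 CPM in FCON (-1.28 log2, adjusted p = 0.00100). CENPO, a centromere protein, had 1.30 ± 0.306 CPM in FE and 7.72 ± 0.689 CPM in FCON (-2.54 log2, adjusted p = 7.6e-04). FBXO5, an inhibitor of the anaphase-promoting complex, rose to 9.58 ± 1.71 CPM in FE, against 1.85 ± 0.628 CPM in FCON (adjusted p = 0.00185). Of 34 genes of G1 control and arrest, 10 rose and 5 fell, to be read against the same shares of all genes. BTG1, an antiproliferative gene, rose to 512 ± 88.2 CPM in FE, against 270 ± 4.52 CPM in FCON (adjusted p = 0.00141), and so did LIN52, a subunit of the DREAM complex that represses cell cycle genes in resting cells (34.4 ± 2.54 CPM in FE, 16.5 ± 0.770 CPM in FCON, adjusted p = 6.3e-04). CCNG1, a target of p53, fell to 34.8 ± 0.764 CPM in FE, against 65.5 ± 2.28 CPM in FCON (adjusted p = 4.5e-04).

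In day-old liver, nearly all cell cycle genes had higher levels in chicks of FE sires than in chicks of FCON sires, but no gene of the set or of the genome passed the adjusted threshold. MKI67 averaged 27.6 ± 7.10 CPM in FE and 8.26 ± 1.11 CPM in FCON (SD, n = 3 pools each), and SMC4 25.4 ± 11.0 CPM and 9.86 ± 1.17 CPM. Of 45 entries tested 42 differences were positive, where 49.4% of all genes tested were, 0 were called, and the median log2 difference was 0.68, against -0.01 over all genes. Called genes were 0% of the 9700 tested in the higher direction and 0% in the lower. At an unadjusted p below 0.05, 18 of the 45 were higher and 0 lower, where 4.09% of all genes were higher at that p. In 16 entries every FE pool was above every FCON pool and in 0 every FE pool was below, where 7.49% and 6.59% of all genes showed these. DESeq2 called 1 entry higher (MKI67), among 17 genes in all, and limma called 0 entries. Over all genes 679 had an unadjusted p below 0.05 in edgeR.

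MKI67 had 29.2, 33.8 and 19.8 CPM in day-old FE livers and 9.32, 7.11 and 8.36 CPM in day-old FCON livers. All FE pools were above all FCON pools, by 1.75 log2 (SE 0.33, adjusted p = 0.466). SMC4 had 23.7, 37.0 and 15.3 CPM in FE and 11.2, 9.26 and 9.11 CPM in FCON, a difference of 1.37 log2 (SE 0.38, adjusted p = 0.701). TOP2A had 49.2, 91.1 and 55.6 CPM in FE and 27.4, 13.8 and 45.2 CPM in FCON (1.20 log2, SE 0.45, adjusted p = 0.701). For SMC4 and TOP2A too, the lowest FE pool was above the highest FCON pool. The same held for all 6 genes of chromosome folding and Ki-67, each with an unadjusted p below 0.05.

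CENPE, the motor that carries chromosomes to the spindle equator, had 11.7, 17.3 and 8.87 CPM in FE and 4.19, 4.79 and 4.25 CPM in FCON (1.53 log2, SE 0.38, adjusted p = 0.696). TTK, the kinase at the head of the spindle checkpoint, had 10.3, 8.96 and 6.37 CPM in FE and 4.38, 3.61 and 2.38 CPM in FCON (1.32 log2, SE 0.42, adjusted p = 0.701). KIF11, which pushes spindle poles apart, had 10.9, 12.3 and 6.70 CPM in FE and 3.27, 2.10 and 5.23 CPM in FCON (1.51 log2, SE 0.46, adjusted p = 0.701). In each of these genes the FE and FCON pools did not overlap. PRC1 had 31.3, 51.0 and 36.8 CPM in FE and 15.1, 19.2 and 17.9 CPM in FCON (1.20 log2, SE 0.31, adjusted p = 0.701), again without overlap.

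Few replication and nucleotide genes had a small p in day-old liver. Of 8 licensing and fork genes 1 had an unadjusted p below 0.05 (CDC45), and of the 3 nucleotide genes 0 did, with differences of 0.43 to 0.49 log2. PCNA had 41.1, 28.5 and 17.4 CPM in FE and 36.6, 19.7 and 67.9 CPM in FCON, overlapping widely (-0.50 log2, SE 0.48, adjusted p = 0.812). CKS1B had 197, 198 and 179 CPM in FE and 146, 150 and 198 CPM in FCON (0.23 log2, adjusted p = 0.835). By role, the median log2 difference was 0.50 for licensing and fork genes, 0.52 for cyclins and kinases, 0.96 for the kinetochore, 1.00 for the spindle and 1.12 for chromosome folding. Whether the roles differ from each other was not tested.

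**Figure D3:**
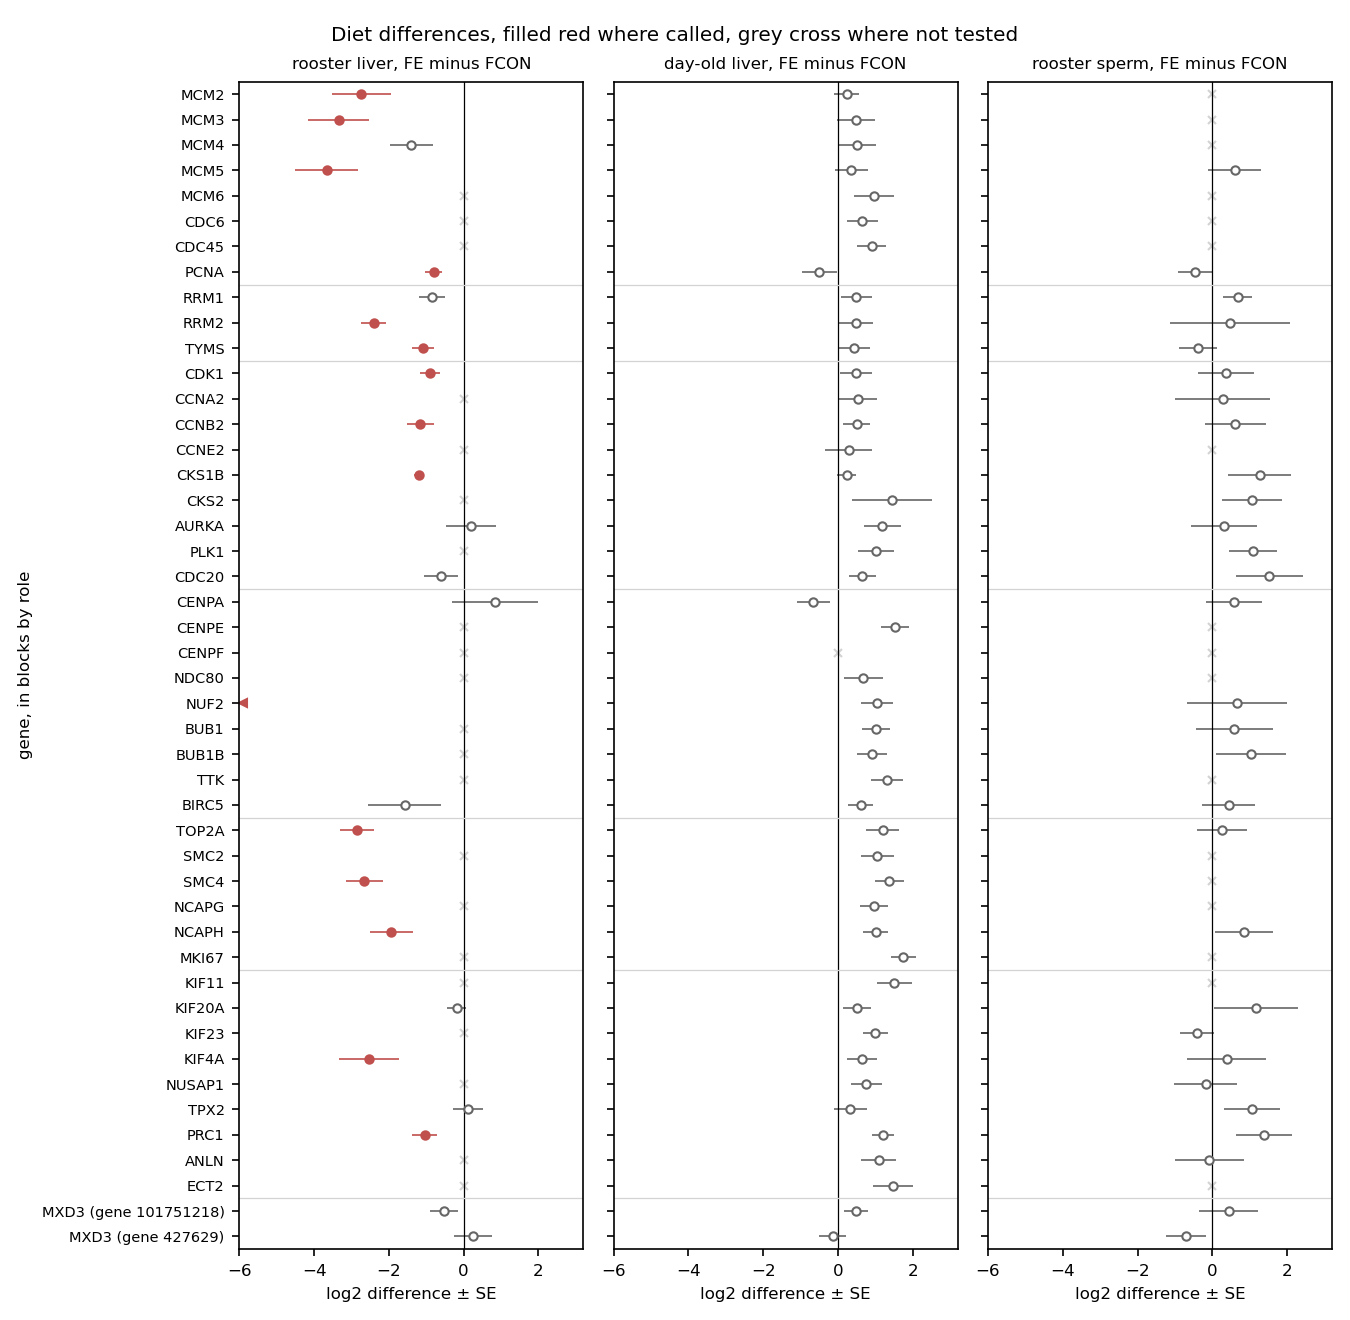
Log2 difference FE minus FCON of each entry with its standard error, in rooster liver, day-old liver and rooster sperm, filled where called, with a cross where not tested and an arrow for NUF2, which had 0 counts in rooster FE livers. The 15 called entries in rooster liver lie left of 0, while 42 of 45 in day-old liver and 23 of 29 in sperm lie right of 0 with none called.

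Pools of the same group differed from each other. FE replicate 3 was the lowest FE pool in 39 of 46 entries, and FCON replicate 2 the lowest FCON pool in 36. The sum without CKS1B was 1375, 1381 and 851 CPM in FE and 818, 483 and 1028 CPM in FCON, so FE replicate 3 lay within the FCON range. Without both pools numbered 2, the pools with W counts, 2 FE pools were set against 2 FCON pools: 41 of 45 differences were positive, the median was 0.37 log2, and 0 entries were called. The difference went with transcript length: over all tested genes, in 5 bins of like size by the length that counts and FPKM imply, the median log2 difference was -0.20, -0.09, 0.03, 0.07 and 0.17 from shortest to longest. Over the tested entries in the same bins (7, 9, 8, 16 and 5 of them) it was 0.48, 0.52, 0.83, 0.93 and 1.46. Nuclear rRNA was 14.0, 4.70 and 20.4% in FE pools 1 to 3 and 16.4, 27.9 and 29.1% in FCON pools 1 to 3. Summed hepatocyte markers (1 of 19 genes at 0 in each group; 40255 to 75951 CPM in FE, 38234 to 76409 CPM in FCON), macrophage markers (140 to 413 CPM and 230 to 509 CPM) and erythroid markers (142 to 850 CPM and 143 to 1631 CPM) overlapped between the groups. Heterophil markers (9 genes, 2 of them at 0 in all FE pools and 3 in all FCON pools) did not overlap, with 4.45 to 6.50 CPM in FE and 6.54 to 19.3 CPM in FCON. All 3 of them that were tested were lower in FE at an unadjusted p below 0.05, with a median of -1.81 log2, and 0 were called. The part of transcript length, of rRNA content and of heterophils in the result was not tested.

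Positive differences were seen in 30 of 42 other replication genes and 44 of 54 other mitosis genes, and in 21 of 36 G1 control and arrest genes, where 49.4% of all genes were positive, with 0 called in each list and 7, 16 and 1 at an unadjusted p below 0.05, all positive but the last. HMMR, a spindle assembly protein, had 14.5 ± 3.82 CPM in FE and 4.36 ± 1.05 CPM in FCON (1.75 log2, adjusted p = 0.585). ESPL1, the protease separase, had 20.4 ± 4.74 CPM in FE and 9.07 ± 1.43 CPM in FCON, and MCM10, which joins the helicase to the polymerase, 11.1 ± 2.85 CPM and 4.32 ± 1.16 CPM, both with adjusted p = 0.701. On the negative side, MXD4, a relative of MXD3, had 4.19 ± 2.42 CPM in FE and 9.70 ± 2.43 CPM in FCON, also with adjusted p = 0.701. GINS4, a helicase subunit, had 20.9 ± 4.2 CPM in FE and 35.0 ± 18 CPM in FCON (adjusted p = 0.735), and CHAF1A, a histone chaperone of the fork, 25.0 ± 9.62 CPM and 40.4 ± 19.3 CPM (adjusted p = 0.754).

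The diet difference of rooster liver was lower than that of day-old liver for many of the genes, which the difference of the 2 diet differences tests over all 12 livers. Of 45 entries tested, 20 were called lower and 0 higher, where 10.2% of 11002 genes were called lower and 8.44% higher. The median was -2.19 log2, against -0.07 over all genes. The FPKM minimum admitted many entries through day-old liver, where they are high. With no FPKM minimum all 46 were tested, 17 were called lower and 0 higher, where 6.79% of genes were called lower, and 44 differences were negative and 2 positive, with a median of -2.32 log2 (-0.30 over all genes). By role, 4 of 8 licensing and fork genes, 1 of 3 nucleotide genes, 4 of 9 cyclins and kinases, 3 of 8 kinetochore genes, 5 of 6 chromosome folding genes and 3 of 9 spindle genes were called. The values of the 12 libraries are those given above, so this comparison shares all of its libraries with the diet comparisons.

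SMC4 differed by -4.05 log2 (SE 0.65, adjusted p = 0.00187), from -2.66 in rooster liver and 1.37 in day-old liver. TOP2A differed by -4.04 (SE 0.67, adjusted p = 0.00226), from -2.84 and 1.20. MKI67 differed by -3.75 (SE 0.93, adjusted p = 0.0162), and by -5.42 to -3.24 when 1 library was left out. PRC1 differed by -2.26 (SE 0.39, adjusted p = 0.00273) and CKS1B by -1.44 (SE 0.26, adjusted p = 0.00372). CDC45, a part of the active helicase, had 0, 0 and 0.272 CPM in rooster FE livers and 2.25, 1.31 and 1.38 CPM in rooster FCON livers, against 17.9, 17.6 and 8.87 CPM in day-old FE livers and 7.94, 6.25 and 9.81 CPM in day-old FCON livers. Its difference of -4.93 log2 (SE 0.96, adjusted p = 0.00534) rests on 0 or few counts in rooster FE livers, and it was from -9.68 to -4.29 when 1 library was left out, the first without FE replicate 3, when rooster FE livers held 0 counts. NUF2 had the smallest p (adjusted p = 5.2e-04) with 0 counts in rooster FE livers, where a fitted size has no meaning. Its day-old values were 17.8, 12.9 and 7.76 CPM in FE and 8.02, 3.98 and 6.82 CPM in FCON. PCNA was not called (-0.32, SE 0.59, adjusted p = 0.743).

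The count of calls ranged from 11 to 20 when 1 library was left out, with 11 to 13 without a rooster FCON library, 12 without day-old FCON replicate 2 and 12 without day-old FE replicate 1 or 2. The shares of all genes called in these fits are not given here. Of other pathway genes, 13 of 42 replication and 19 of 55 mitosis genes were called lower and 0 higher. Of 40 G1 control and arrest genes 3 were higher and 2 lower. Among all genes tested 10.2% were called lower and 8.44% higher, and the shares of the G1 list do not exceed these. The lower ones with the smallest p were RACGAP1 and CKAP2, both at 0 counts in rooster FE livers, and CENPO (-3.12 log2, adjusted p = 0.00111). The 3 higher ones were MXD4 (2.48, adjusted p = 0.0169), the G1 cyclin CCND3 (1.96, adjusted p = 0.0193) and the repressor E2F4 (1.21, adjusted p = 0.0254).

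Adult livers had far less of almost every cell cycle mRNA than day-old livers on the same diet label. Both age comparisons share their libraries with the diet comparisons above, and age, pooling of chicks and whether the bird or its sire ate the diet cannot be told apart in them. W content also differs in both: it was high in all 3 rooster FCON livers, at most 2.07 CPM in rooster FE livers, and high in only the pool numbered 2 of each day-old group. In FE livers, RRM2 fell to 0.989 ± 0.284 CPM in roosters, against 73.8 ± 29.1 CPM in day-old chicks, and MKI67 to 0.809 ± 1.02 CPM against 27.6 ± 7.10 CPM. Of 45 entries tested in FE livers, 44 were called lower in roosters and 0 higher, where 14.7% of 9847 genes were called lower and 12.8% higher, with a median of -4.31 log2 (-0.04 over all genes). In FCON livers, 34 of 36 tested were called lower and 1 higher, where 15.6% of 10339 genes were called lower and 13.8% higher, with a median of -2.07 log2 (0.00 over all genes). Only 5, 7 and 10 of the 46 entries reached 1 FPKM in rooster FE livers, against 46, 46 and 45 in day-old FE livers, so most passed through the day-old pools. With no FPKM minimum, 45 of 46 were called lower in FE roosters, where 9.93% of genes were, and in all 46 every rooster library was below every day-old pool, as in 21.3% of genes. In FCON roosters 37 of 46 were then called lower, where 8.63% of genes were, and in 41 of 46 every rooster library was below every day-old pool, as in 17.7% of genes.

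The library values behind the FE comparison were given above for RRM2, CKS1B, TOP2A, PRC1, MKI67 and PCNA, with PRC1 at 1.54, 2.39 and 2.11 CPM in rooster FE livers. RRM2 fell by 6.18 log2 (SE 0.43, adjusted p = 2.6e-04), its day-old FE values being 106, 67.3 and 48.5 CPM. TOP2A fell by 5.84 (SE 0.50, adjusted p = 3.7e-04), MKI67 by 4.99 (SE 0.86, adjusted p = 0.00443), PRC1 by 4.27 (SE 0.33, adjusted p = 2.6e-04) and CKS1B by 2.80 (SE 0.23, adjusted p = 3.2e-04). CDC20 had 2.31, 1.01 and 2.78 CPM in rooster FE livers and 44.8, 59.0 and 30.8 CPM in day-old FE livers, a fall of 4.46 log2 (SE 0.45, adjusted p = 6.4e-04). MXD3 (gene 101751218) had 1.64, 1.45 and 1.15 CPM in rooster FE livers and 31.5, 35.8 and 27.6 CPM in day-old FE livers, a fall of 4.47 log2 (SE 0.32, adjusted p = 2.6e-04). In all of these the rooster libraries were below the day-old pools. NUF2 and CKS2, at 0 counts in rooster FE livers, were at least 182-fold and at least 47.7-fold lower there. The smallest called fall was that of PCNA (-1.24, SE 0.38, adjusted p = 0.0404), a call that was lost in 5 of 6 fits without 1 library (adjusted p up to 0.134). CENPA was the only tested entry not called (-2.11, adjusted p = 0.177).

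In FCON livers CDC20 had 2.33, 3.83 and 3.25 CPM in roosters and 26.5, 19.9 and 40.4 CPM in day-old chicks, and fell by 3.22 log2 (SE 0.35, adjusted p = 0.00244). CDK1 had 6.82, 7.92 and 8.62 CPM in roosters and 36.2, 41.5 and 79.0 CPM in day-old chicks, and fell by 2.76 (SE 0.34, adjusted p = 0.00302). CCNB2 had 6.14, 6.58 and 7.55 CPM in roosters and 30.7, 24.1 and 45.8 CPM in day-old chicks, and fell by 2.32 (SE 0.28, adjusted p = 0.00302). None of these 3 genes overlapped between the ages.

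MXD3 (gene 101751218) had 2.35, 2.25 and 1.55 CPM in FCON roosters and 28.0, 15.2 and 24.9 CPM in day-old FCON chicks, and fell by 3.48 (SE 0.33, adjusted p = 0.00178). MXD3 (gene 427629) had 7.10, 5.88 and 5.16 CPM in roosters and 33.4, 21.4 and 37.1 CPM in day-old chicks, and fell by 2.35 (SE 0.28, adjusted p = 0.00277). PRC1 had 3.70, 5.27 and 3.81 CPM in roosters and the day-old values above, and fell by 2.04 (SE 0.24, adjusted p = 0.00279). Both MXD3 entries thus went with the proliferation genes by age, while neither was called by diet. TOP2A fell by 1.83 (SE 0.42, adjusted p = 0.0203), a call that was lost without any 1 rooster FCON library (adjusted p up to 0.0849). PCNA was not called (-0.94, SE 0.42, adjusted p = 0.132), but was without day-old FCON replicate 2 (adjusted p = 0.0229).

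SMC4 stood out as the 1 entry that was higher in FCON roosters than in day-old FCON chicks, with 25.0, 34.7 and 34.2 CPM against 11.2, 9.26 and 9.11 CPM. It rose by 1.65 log2 (SE 0.22, adjusted p = 0.00367). Its condensin partner SMC2, on the Z chromosome, had 1.05, 1.16 and 1.65 CPM in FCON roosters and 17.4, 8.08 and 22.5 CPM in day-old FCON chicks (-3.65 log2). SMC4 and SMC2 form 1 dimer, and the condensin I subunits NCAPG (-1.24) and NCAPH (-1.91) also fell. In FE livers SMC4 was lower in roosters (-2.38, adjusted p = 0.0160), a call that was lost without rooster FE replicate 3 (adjusted p = 0.0592). The annotated microRNA genes MIR15B and MIR16-2 lie within SMC4 on the same strand and held 0 counts in all libraries. In FCON livers the age difference also went with transcript length. In 5 length bins of like size the median over all genes was -0.43, -0.16, -0.01, 0.16 and 0.40 log2 from shortest to longest. Over the tested entries (6, 9, 9, 10 and 2 of them) it was -2.31, -2.32, -2.04, -1.98 and -0.09. SMC4, at an implied 6.23 kb, lay in the longest bin. The part of transcript length was not tested.

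**Figure D4:**
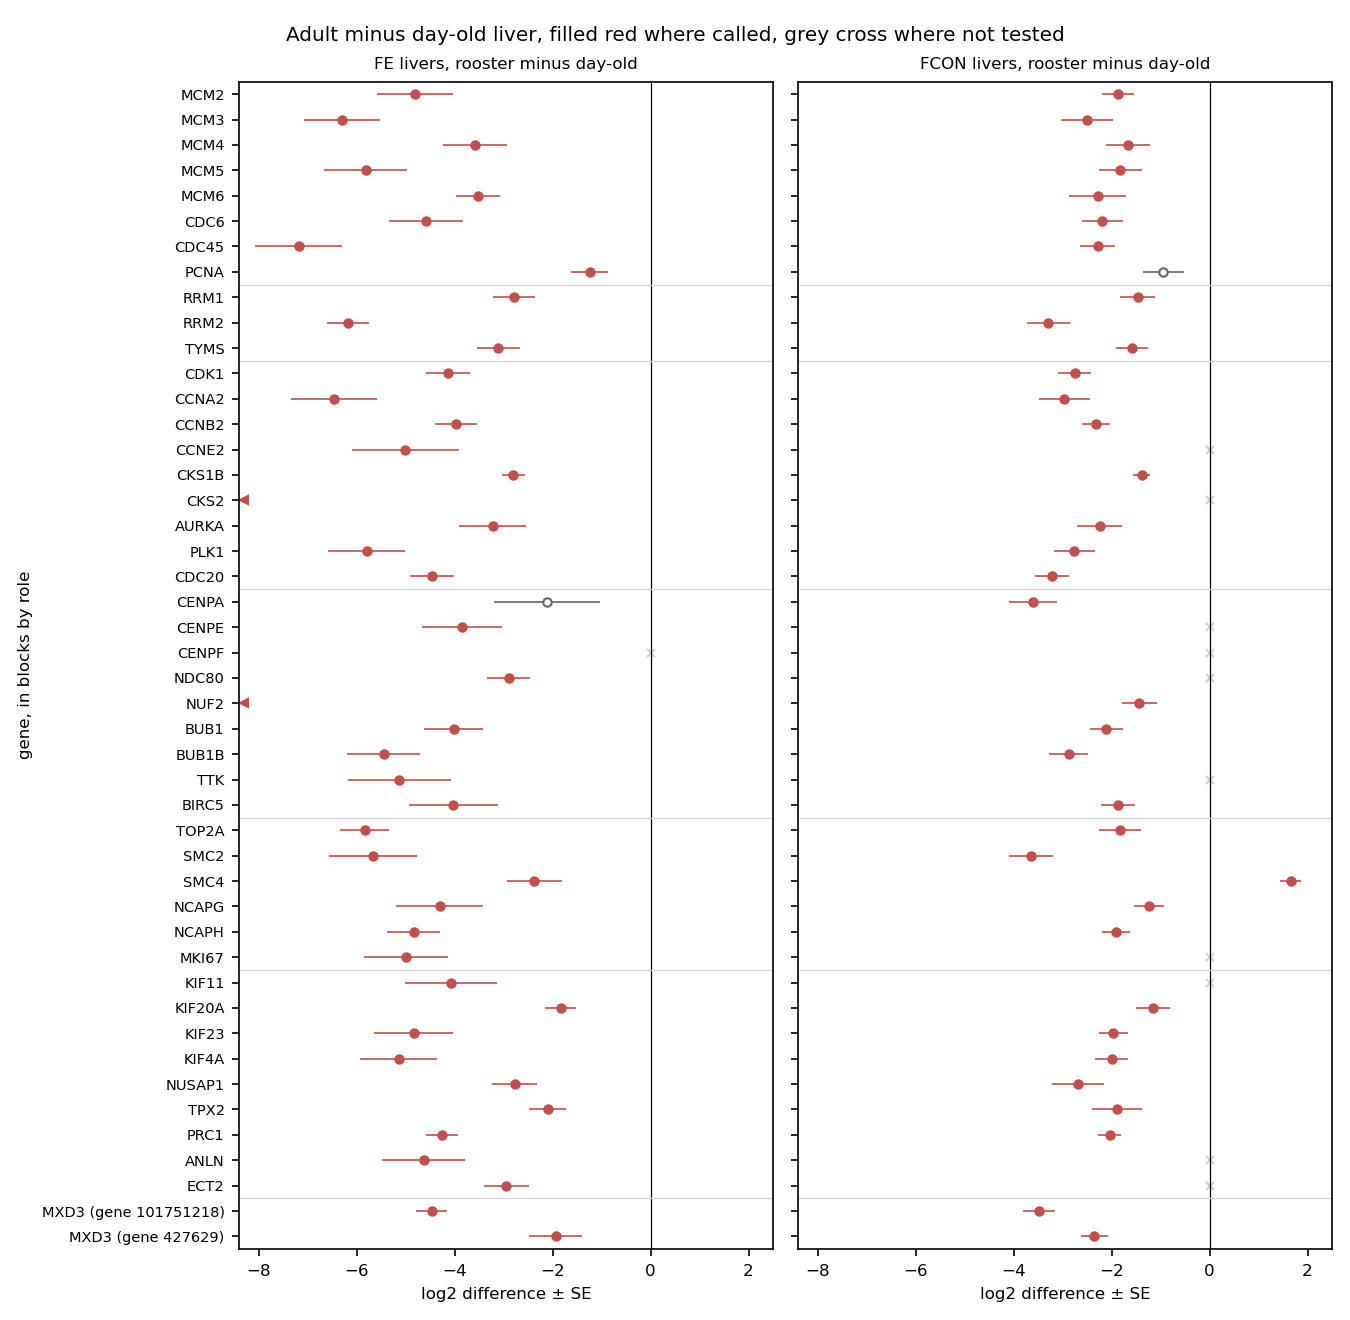
Log2 difference of rooster minus day-old liver for each entry with its standard error, in FE livers on the left and FCON livers on the right, filled where called, a cross where not tested. Arrows mark NUF2 and CKS2, which had 0 counts in rooster FE livers. In FE livers 44 of 45 are called and left of 0, and in FCON livers 34 of 36 are, with SMC4 alone called to the right.

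Leaving out 1 library left 41 to 43 entries called lower in FE livers. In FCON livers it left 20 to 34, with 20 or 21 without a rooster FCON library. The shares of all genes called lower in these fits are not given here. In the fits of all 6 libraries they were 14.7% in FE livers and 15.6% in FCON livers. Summed hepatocyte markers were 114802 to 116412 CPM in FCON roosters and 38234 to 76409 CPM in day-old FCON chicks, with 7 of 17 tested higher in roosters and 1 lower, while in FE they were 57316 to 90418 CPM and 40255 to 75951 CPM, with 2 higher and 6 lower. Macrophage markers were 1343 to 1481 CPM in FE roosters and 140 to 413 CPM in day-old FE chicks (13 of 14 higher, 0 lower), and 801 to 814 CPM in FCON roosters and 230 to 509 CPM in day-old FCON chicks (2 higher, 2 lower). T and NK cell markers were 413 to 536 CPM in FE roosters and 5.72 to 9.66 CPM in day-old FE chicks (4 of 5 tested higher), with 1 and 6 of 13 genes at 0 in all libraries of the group. In FCON they were 120 to 129 CPM in roosters and 7.01 to 15.4 CPM in day-old chicks (2 of 4 tested higher), with 0 and 4 genes at 0. B and plasma cell markers were 307 to 315 CPM in FE roosters and 80.0 to 157 CPM in day-old FE chicks (3 of 5 tested higher), and 142 to 152 CPM in FCON roosters and 70.9 to 95.8 CPM in day-old FCON chicks (4 of 5 tested higher). Heterophil markers were 15.9 to 28.7 CPM in FE roosters and 4.45 to 6.50 CPM in day-old FE chicks (2 of 3 tested higher), and 8.26 to 9.34 CPM in FCON roosters and 6.54 to 19.3 CPM in day-old FCON chicks (1 of 4 tested lower). The part of these cell types in the age differences was not tested.

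Many other pathway genes were lower in roosters too. In FE livers 25 of 39 other replication genes and 35 of 48 other mitosis genes were called lower, with 0 and 1 higher. Of all genes in FE livers 14.7% were called lower and 12.8% higher. In FCON livers 12 of 34 and 22 of 42 were called lower, with 1 and 0 higher, where 15.6% of all genes were called lower and 13.8% higher. In FCON livers these included DLGAP5, a spindle protein (1.49 ± 0.120 CPM in roosters, 18.5 ± 10.9 CPM in day-old chicks), and UBE2C, a partner of the anaphase-promoting complex (6.62 ± 1.30 CPM and 39.8 ± 15.6 CPM). E2F2, an activator of S phase genes counted with the G1 list, also fell (1.22 ± 0.159 CPM in roosters, 6.49 ± 0.402 CPM in day-old chicks). In FE livers they included the chromatin factor CDCA7 (3.15 ± 0.986 CPM in roosters, 31.3 ± 5.10 CPM in day-old chicks), the condensin subunit NCAPD2 (7.64 ± 1.60 CPM and 41.0 ± 2.00 CPM) and RACGAP1, which acts in cytokinesis and was at least 272-fold lower.

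Of the G1 control and arrest list, 10 were higher and 8 lower of 37 in FE livers (12.8% and 14.7% of all genes), and 6 higher and 4 lower of 35 in FCON livers (13.8% and 15.6% of all genes). The FCON shares are near those of all genes. CDKN2B, an inhibitor of the G1 kinases, had 0 counts in all 6 day-old pools and averaged 5.94 ± 0.850 CPM in FE roosters and 16.3 ± 0.306 CPM in FCON roosters. It was at least 244-fold higher than in day-old chicks in FE livers and at least 365-fold higher in FCON livers. Its neighbour CDKN2A had 7.67 ± 0.889 CPM in FCON roosters and 0.6 ± 0.147 CPM in day-old FCON chicks (3.65 log2, adjusted p = 0.00178). CCNG2, an atypical cyclin of resting cells, had 30.4 ± 2.83 CPM and 9.07 ± 2.13 CPM (1.73 log2, adjusted p = 0.00383). In FE livers BTG2, an antiproliferative gene, had 245 ± 87.7 CPM in roosters and 53.9 ± 16.4 CPM in day-old chicks (2.20 log2, adjusted p = 0.00352), and MXI1, a MYC antagonist, 25.7 ± 3.99 CPM and 7.53 ± 2.14 CPM (1.78 log2, adjusted p = 0.00507).

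**Figure D5:**
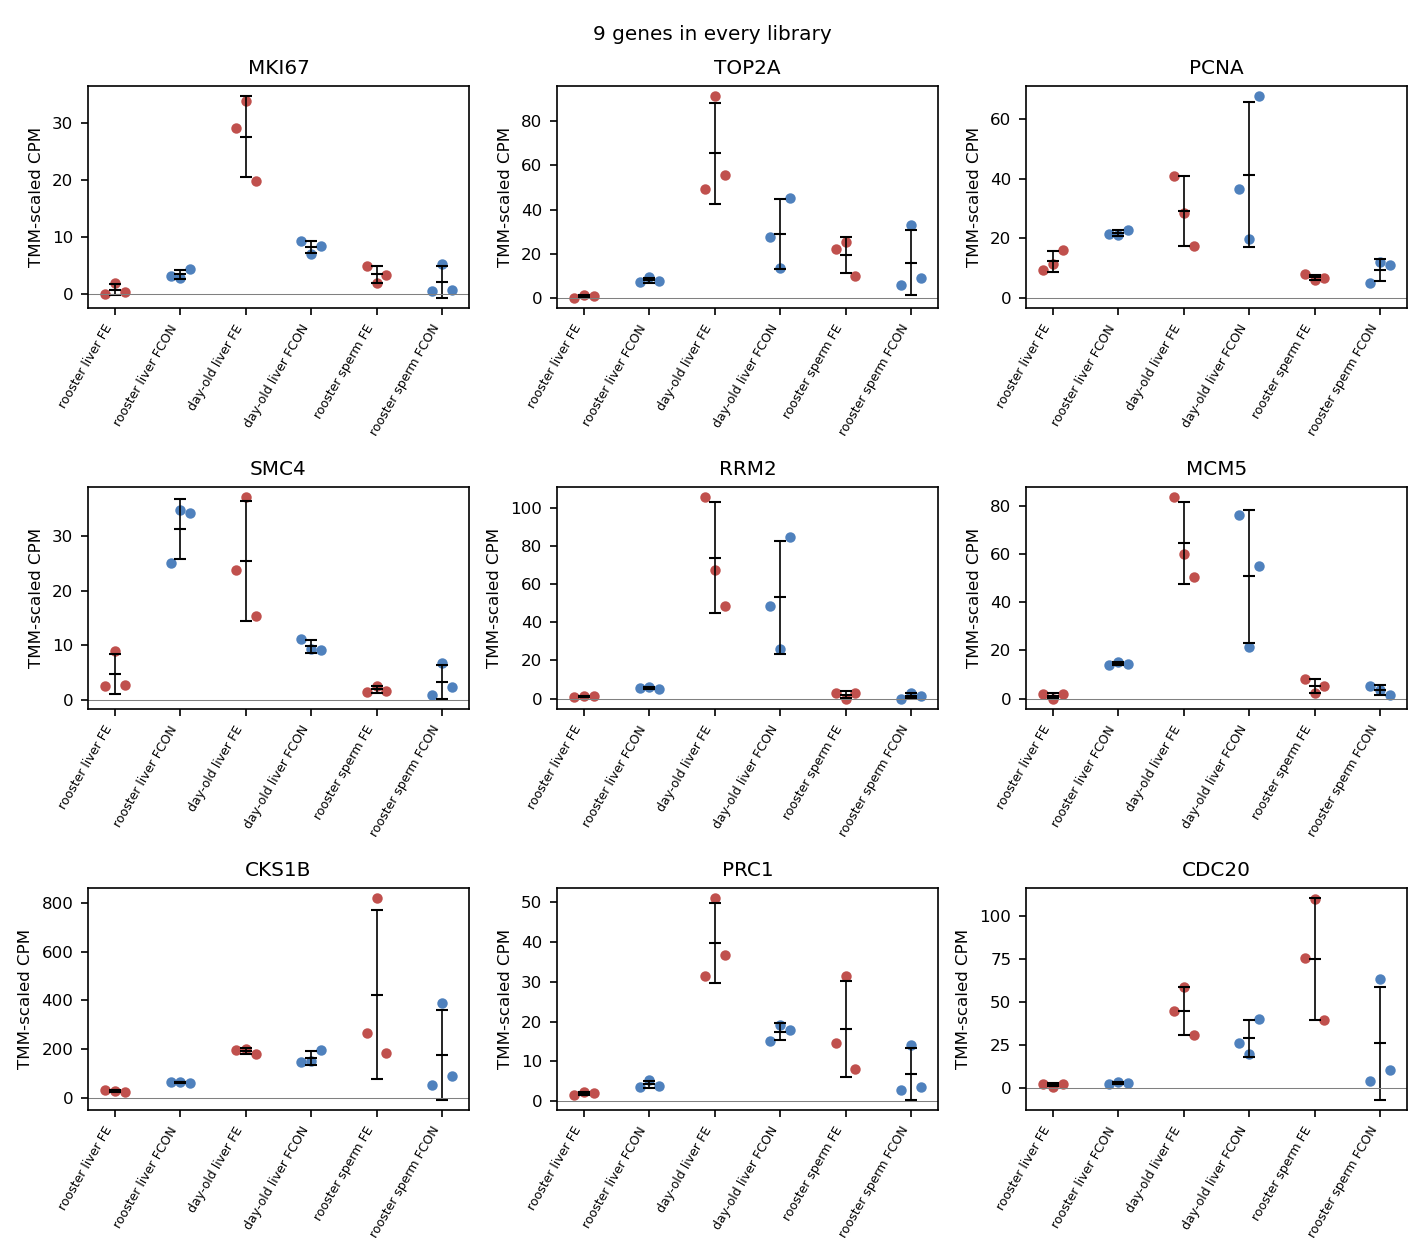
TMM-scaled CPM of 9 genes in every library, with the mean and SD of 3 per group, and liver and sperm scaled separately. MKI67 in day-old FE livers (19.8 to 33.8) lies above day-old FCON livers (7.11 to 9.32), SMC4 in rooster FCON livers (25.0 to 34.7) lies above day-old FCON livers (9.11 to 11.2), and FCON replicate 2 is the highest FCON sperm library in all panels but MCM5.

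The sperm libraries held mRNA of both replication and mitotic genes, led by CKS1B. Mature sperm do not divide, and their RNA is widely read as a remnant of spermatogenesis. The cell source of the mRNAs in these libraries was not tested. By mean deposited FPKM the leading entries in FE sperm were CKS1B (552), CDC20 (37.5), CKS2 (14.7), CENPA (11.8) and CCNB2 (10.7), and in FCON sperm CKS1B (406), CDC20 (21.4), PCNA (13.7), CKS2 (12.4) and BIRC5 (12.3). Summed over the 8 licensing and fork genes the level was 31.2, 17.9 and 22.1 CPM in FE sperm and 21.4, 31.7 and 20.5 CPM in FCON sperm, and over the 9 cyclins and kinases 389, 1031 and 256 CPM in FE and 70.8, 534 and 118 CPM in FCON. Most of the last sum is CKS1B: without it the cyclins and kinases held 122, 211 and 73.9 CPM in FE sperm and 17.8, 146 and 30.4 CPM in FCON sperm. FCON replicate 1 then lay below its own sum of the licensing and fork genes. Sperm and liver were not tested against each other.

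By diet, 29 entries were tested in sperm, 23 differences were positive and 6 negative, where 44.3% of all genes were positive, and 0 were called, as for all 8811 genes tested (0% higher, 0% lower). At an unadjusted p below 0.05 the count was 0 of 29, where 1.31% of all genes were higher at that p. DESeq2 and limma called 0 entries. Over all genes 296 had an unadjusted p below 0.05 in edgeR. The median log2 difference was 0.57, against -0.09 over all genes.

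PRC1 had the smallest p, with 14.6, 31.5 and 8.06 CPM in FE sperm and 2.83, 14.2 and 3.46 CPM in FCON sperm (1.39 log2, SE 0.75, adjusted p = 0.902). CDC20 had 75.9, 110 and 39.4 CPM in FE and 4.25, 63.4 and 10.4 CPM in FCON (1.53 log2, SE 0.90, adjusted p = 0.902). CKS1B had 267, 820 and 182 CPM in FE and 53.0, 388 and 87.9 CPM in FCON (1.26 log2, SE 0.84, adjusted p = 0.902). In all 3 genes FCON replicate 2 lay within the FE range and the other FCON libraries below it.

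TPX2, which recruits AURKA to the spindle, had 23.6, 37.5 and 12.5 CPM in FE sperm and 4.00, 25.7 and 5.22 CPM in FCON sperm (1.07 log2, SE 0.75). PLK1, a kinase of mitotic entry, had 7.63, 10.7 and 2.73 CPM in FE and 2.71, 5.02 and 2.14 CPM in FCON (1.09 log2, SE 0.64). RRM1 had 23.8, 22.3 and 18.4 CPM in FE and 10.1, 18.6 and 11.5 CPM in FCON (0.68 log2, SE 0.39). For RRM1 the highest FCON library lay just above the lowest FE library, and for all of them the adjusted p was 0.902.

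TOP2A had 22.3, 25.6 and 10.2 CPM in FE and 6.15, 33.0 and 9.01 CPM in FCON (0.27 log2, SE 0.67, adjusted p = 0.955). PCNA had 7.83, 6.05 and 6.51 CPM in FE and 4.99, 11.9 and 11.1 CPM in FCON (-0.46 log2, SE 0.46, adjusted p = 0.904). MKI67 was not tested, with 5.01, 2.04 and 3.41 CPM in FE and 0.492, 5.31 and 0.664 CPM in FCON. The groups overlapped in all 3 genes.

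FCON replicate 2 was the highest FCON library in 40 of 46 entries and FCON replicate 1 the lowest in 36. Without FCON replicate 2 the median log2 difference was 1.64 and CDC20 was called higher (3.35 log2, adjusted p = 0.0447). Without FCON replicate 1 the median was 0.13, and without FE replicate 2 it was 0.13 as well. Summed spermatid and sperm markers (8 genes, none at 0) moved with the set: 734, 927 and 531 CPM in FE replicates 1 to 3 and 127, 951 and 166 CPM in FCON replicates 1 to 3. Of these genes 7 were tested, 5 with a positive and 2 with a negative difference, and 0 were called. The sum of T and NK cell markers (13 genes, 2 to 10 at 0 in a library) also moved with the set (117, 317 and 111 CPM in FE, 47.2, 208 and 70.4 CPM in FCON). Most of that sum was the single gene GNLY, with a mean of 174 CPM in FE and 96.9 CPM in FCON. Of the 13 genes 2 were tested, 1 with a positive and 1 with a negative difference, so the sum does not describe the list. Spermatogonium and spermatocyte markers (12 genes, 2 to 9 at 0 in a library) summed to 9.59, 24.6 and 10.8 CPM in FE. In FCON they summed to 3.32, 27.1 and 10.3 CPM. Only 2 of the 12 were tested, both with a positive difference, and 0 were called. Cholangiocyte markers (9 genes, none at 0) went the other way, with 424, 240 and 551 CPM in FE and 494, 347 and 609 CPM in FCON. All 9 were tested, each with a negative difference, and 0 were called. Nuclear rRNA was 5.85, 50.2 and 2.35% in FE replicates 1 to 3 and 10.6, 4.71 and 16.9% in FCON replicates 1 to 3. In 5 length bins of like size the median log2 difference over all genes was 0.10, 0.04, -0.07, -0.20 and -0.33 from shortest to longest. Over the tested entries (5, 9, 6, 8 and 1 of them) it was 0.57, 0.44, 0.72, 0.63 and 0.27. The part of these markers, of rRNA content and of transcript length in the difference was not tested.

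The other pathway genes in sperm gave 0 calls in each list with edgeR, and 0, 2 and 0 had an unadjusted p below 0.05 in the replication, mitosis and G1 lists. Positive differences were seen in 13 of 26 other replication genes, 32 of 40 other mitosis genes and 15 of 34 G1 control and arrest genes, where 44.3% of all genes were positive. KIF18B, a microtubule depolymerase, had 27.2 ± 8.84 CPM in FE and 7.88 ± 7.69 CPM in FCON, ESPL1 16.2 ± 5.01 CPM and 6.72 ± 4.36 CPM, and NCAPD2 21.0 ± 7.73 CPM and 8.89 ± 6.76 CPM. GINS4 had 18.9 ± 2.07 CPM in FE and 45.3 ± 50.3 CPM in FCON, CCNG2 9.48 ± 6.10 CPM and 19.4 ± 3.10 CPM, and the repressor E2F5 3.23 ± 0.427 CPM and 7.12 ± 3.61 CPM. All 6 had an adjusted p of 0.902.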

How the data were processed

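Per the labels, polyA RNA was caught on oligo-dT beads and read as paired ends, and the submitters' processing notes name cutadapt, HISAT2 and StringTie, with versions, settings and genome build not given in the sources used here. The deposited table holds whole-number counts per gene and FPKM, both made by the authors. Counts were fitted with edgeR 4.0.16 (quasi-likelihood, TMM) within the libraries of each comparison (6 libraries, or 12 for the difference of diet effects), and genes with FPKM of at least 1 in at least 3 libraries were tested. Alternatives were DESeq2 1.42.0, limma 3.58.1 on log2(FPKM + 1) and log2(FPKM + 0.1), RLE scaling, no FPKM minimum, the replicate number as a block, 1 fit of all livers, and leaving out libraries with the tested genes kept. SE is that of the log2 difference. Replicates are separate birds or pools per the labels, so p measures the spread between few libraries. Every replicate pair differed beyond counting noise (chi-square per degree of freedom at least 26). The rooster FCON livers, whose W counts go against their labels, were unusually alike. Their pairs had values of 81.1, 116 and 26.0, against 167, 297 and 72.4 in rooster FE livers. Their summed erythroid markers were 429 to 430 CPM, against 362 to 966 CPM in rooster FE livers. Whether they show the full spread between birds was not tested, and if not, p is too small wherever they enter. The scripts were tested on simulated data.

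The genes, the lists and the tests were chosen with earlier results of these data known. Values of every library are given for the 6 genes with the smallest p in each comparison and for MKI67, TOP2A and PCNA; SMC2, CENPA and, where a sentence needs them, single others were added after their values were seen. Of other pathway genes, the 3 with the smallest p in each direction are named. Sperm libraries of the same number correlate weakly after removal of group means (0.119, 0.179 and 0.243). The main sperm fit did not pair them, and only the replicate block did. Such pairing would rest on the data alone, which do not establish it, and the block changed no call there (0 higher, 0 lower). Where a whole group has 0 counts, folds are bounds from 3 counts over the group, and medians do not change with such genes at their bound. Floors cover counting error only. A GRCg7b RefSeq table served for symbols and neighbours only.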

Additional observations from a re-analysis of the deposited data

Results flagged for a closer look

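Whether the diet difference itself differed between rooster and day-old liver was tested with edgeR as an interaction over 12 livers. Of 45 tested cell cycle entries 20 were called, all with a lower diet difference in rooster liver. Of all 11002 genes tested, 10.2% were called lower and 8.44% higher. The FPKM minimum admitted many entries through day-old liver, where they are high. With no FPKM minimum 17 of 46 entries were called lower and 0 higher, where 6.79% of genes were called lower. The 20 entries called with the minimum included CDC45 (-4.93 log2), CKS1B (-1.44), TOP2A (-4.04), SMC4 (-4.05), MKI67 (-3.75) and PRC1 (-2.26). Without 1 library CDC45 ranged from -9.68 to -4.29 and MKI67 from -5.42 to -3.24, both farthest from 0 without a rooster FE library. NUF2 was called as well, with a fitted difference of -10.25 that depends on the prior count because rooster FE livers held 0 counts. In rooster liver the diet groups also differ in W chromosome counts, rRNA content and hepatocyte and macrophage marker levels, which cannot be told apart from diet.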

How the results depend on the processing

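The replicate block lowered the entries called lower to 8 in rooster liver and 11 in the difference of diet effects. Outside sperm, libraries of the same number had correlations from -0.18 to 0.06. With so few libraries per group, such values neither establish nor exclude pairing by number. In day-old liver both pools numbered 2 held W counts (1299 CPM in FE and 963 CPM in FCON). No other count of calls moved by over 1.5 times under the block. In the difference of diet effects limma called 41 lower with either pseudocount, where the median of all genes shifted to -1.06 and -1.45 log2 and that of the entries to -1.88 and -3.06 log2. DESeq2 called 1 entry higher in day-old liver. Leaving out 1 library gave 6 to 17 entries lower in rooster liver, 11 to 20 in the difference of diet effects, 20 to 34 in FCON livers by age, and 0 to 1 higher in sperm. Shares of all genes called in those fits are not given here, so these counts cannot be set against all genes. Without both pools numbered 2, 0 day-old entries were called.

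Only PCNA and TOP2A changed sign, neither called under these settings. PCNA in day-old liver became 0.0045 and 0.0068 with limma and ranged from -0.82 to 0.040 without 1 library. PCNA in the difference of diet effects ranged from -0.88 to 0.015, and TOP2A in sperm from -0.12 to 1.37. Over the single genes with library values and all their settings, 624 kept direction and side of the threshold, 16 lost the call, 5 gained it and 6 changed sign. Few counts limit the rooster FE values.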
